A study of Mus musculus with 7 samples.

Results

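The 39 genes described here are markers of macrophages and microglia, the tissue-resident phagocytes of the immune system, read in RNA from the retinal pigment epithelium (RPE) of aged mice. The rule names them as known markers of these cells and uses no measured value. Of the 39 symbols, 38 were matched to the count table of 52740 gene identifiers and 37 had enough counts to be tested among 16990 genes. Marco, a scavenger receptor, had 0 counts in each of the 7 libraries, which allows at most 0.0752 to 0.124 CPM (the usual counts-per-mega-count unit, with library sizes scaled by edgeR's TMM factors) by a limit of 3 counts per library. Axl2 matched no mouse symbol or synonym and has no value. It was not replaced by Axl, which is a different gene. Hexim1, an inhibitor of the transcription elongation factor P-TEFb, is on the list but is not a macrophage marker.

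The study compared 4 wild-type (WT) mice of the C57BL6/J strain with 3 LC3b-/- mice of the strain B6;129P2-Map1lc3b tm1Mrab/J, in which Map1lc3b, the gene for the autophagy protein LC3b, is disrupted in the germline. All mice were 24 months old, and each library is labelled as 1 mouse. The WT libraries are called F1, F2, F3 (females) and M1 (male), and the LC3b-/- libraries F1, F3 (females) and M (male); shared names do not mark paired mice. The genotype and the strain background cannot be told apart in this design. RPE sheets were released with enzymes from eyecups after the neural retina had been pulled away, and no step removed immune cells, so the RNA may come from any cell that stayed with the sheets. In bulk RNA, fewer cells of a type and less RNA per cell cannot be told apart.

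Macrophages and microglia depend on the receptor CSF1R, which binds the growth factors CSF1 and IL-34, and on the transcription factor PU.1, the product of Spi1. Microglia populate the neural retina and can enter the space beside the RPE in age, while other macrophages lie along the vessels of the choroid beneath it. Both engulf debris through receptors that signal by adaptors with ITAM motifs, the short tyrosine motifs of TYROBP and FCER1G. LC3-associated phagocytosis, in which LC3 is joined to a phagosome with the help of the phagocyte NADPH oxidase, operates in macrophages as well as in RPE cells.

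The 7 libraries held 24495952 to 35616134 counts. Map1lc3b had 104 to 130 CPM in the WT libraries and 6.76 to 8.33 CPM in the LC3b-/- libraries, as the labels have it. RPE genes were the most abundant of the marker lists read in all libraries but LC3b-/- F1, at a summed 31812 to 50189 CPM over 14 genes in WT and 13965 to 29929 CPM in LC3b-/- libraries. 1 library of each genotype stood apart. WT F3 had a summed 8.84 CPM of 9 ocular surface epithelium genes (keratins, Trp63 and Dsg3), where the other WT libraries had 595 to 1689 CPM, and LC3b-/- F1 had 22302 CPM where LC3b-/- F3 and M had 6392 and 3446 CPM. The counts over all members, and some of those of a role or list, are therefore also given with both left out, a choice made after the values were seen.

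PU.1 binds purine-rich sites with a GGAA core. The 7-base form GAGGAAG, or its reverse complement CTTCCTC on the other strand, was present within 250 bases upstream of the start of 7 of the 37 members tested (18.9%) and of 1602 of 14928 protein-coding genes tested (10.7%). The members were Adgre1, Csf1r, Fcer1g, Itgam, Mrc1, Spi1 and Trem2. The 3 stretches shown here, each the 150 bases just upstream of the start of the canonical transcript in GENCODE vM39 on GRCm39, are those of the gene for PU.1 itself and of 2 members whose values are set out below. Capitals mark the matches, which are a description of the letters and not of binding.
Spi1 (chr2:90926291-90926440, plus strand): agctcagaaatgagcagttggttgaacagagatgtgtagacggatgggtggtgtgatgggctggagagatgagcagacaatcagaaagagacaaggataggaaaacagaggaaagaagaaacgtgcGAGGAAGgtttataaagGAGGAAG
Itgam (chr7:127661658-127661807, plus strand): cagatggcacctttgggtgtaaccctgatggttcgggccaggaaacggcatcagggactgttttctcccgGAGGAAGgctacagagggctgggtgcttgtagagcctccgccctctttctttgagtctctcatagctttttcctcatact
Trem2 (chr17:48653279-48653428, plus strand): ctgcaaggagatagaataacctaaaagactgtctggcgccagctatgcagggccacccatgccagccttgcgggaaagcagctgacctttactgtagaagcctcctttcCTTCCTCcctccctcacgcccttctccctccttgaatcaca
The matches begin 24 and 7 bases before the start in Spi1, 80 bases before it in Itgam and 41 bases before it in Trem2. The log2 fold changes (LC3b-/- over WT) of these 3 genes ran from 2.31 for Itgam to -0.28 for Trem2, and none passed the main test described below.

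None of the 37 members tested was called in either direction by the main test, the quasi-likelihood F-test of edgeR with p-values adjusted by Benjamini-Hochberg across the 16990 genes. A gene was called where the adjusted p was under 0.05 and the change was 1.5-fold or more. Over all genes that test called 0.124% higher and 0.112% lower in LC3b-/- mice. At an unadjusted p under 0.05, 10 members were higher (27.0%, against 13.5% of all genes) and 1 was lower (2.70%, against 10.6%). Every LC3b-/- library lay above every WT library for 8 members (21.6%, against 12% of all genes), and the reverse held for 0 members (against 10.3%). DESeq2, the tool of the study's methods, called 7 members higher (18.9%, against 6.49% of the 19237 genes to which it gave an adjusted p) and 0 lower (against 2.92%). The 7 were Lyz2, Itgam, Itgb2, Cd14, Cybb, Gpnmb and Lgals3.

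The median log2 fold change of the 37 members was 0.60, and that of all genes tested was 0.01. Without WT F3 and LC3b-/- F1 the members' median was 0.32, and 12 members had an unadjusted p under 0.05 and higher, against 5.89% of all genes. In that setting 16 members lay above in every LC3b-/- library (43.2%, against 14.8% of all genes) and 6 lay below (16.2%, against 16.3%). Log2 fold changes were positive for 28 members and negative for 9, as the plot of all 37 genes shows library by library. The 9 were the 5 genes typical of resident microglia and Csf1r, Aif1, Trem2 and Fcgr1. Of the 9, Cx3cr1, Tmem119, Aif1, Trem2 and Fcgr1 turned positive under limma voom.

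**Figure D1:**
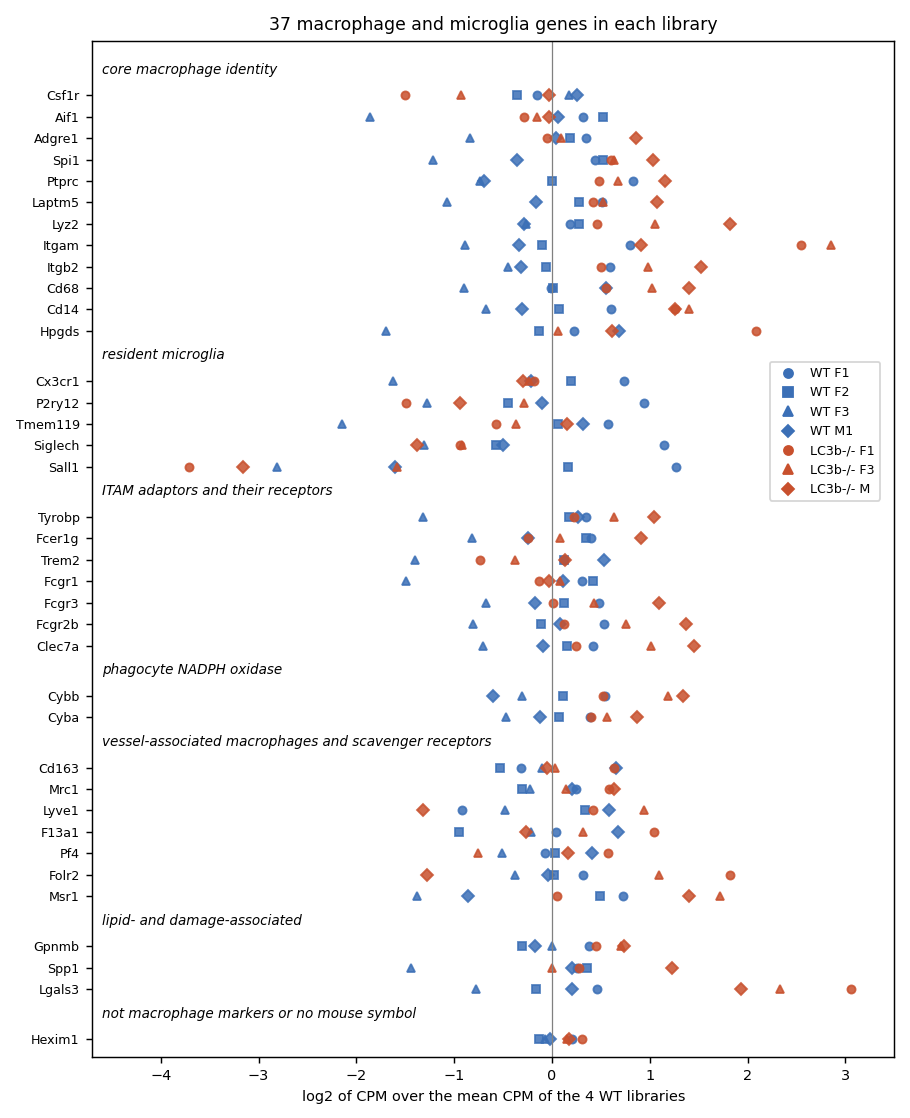
Each row is a gene and each point a library, placed by the log2 of its CPM over the mean CPM of the 4 WT libraries (0 on the horizontal axis); blue marks WT, red LC3b-/-, and the shape the library. WT F3 (blue triangles) is the lowest WT library for 28 of the 37 genes, and the red points lie clear of the blue ones to the right for 8 genes, furthest for Lgals3.

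The libraries of a genotype kept an order over many members. WT F3 was the lowest of the 4 WT libraries for 28 of 37 members and the highest for 0, and WT F1 was the highest for 24. Among the LC3b-/- libraries, M was the highest for 21 members and F1 the lowest for 23. WT F3 was also the lowest WT library for 8 T cell genes (2.66 CPM summed, against 5.65 to 14.8 CPM) and for 8 fibroblast and pericyte genes (413 CPM, against 486 to 1678 CPM). The part of this in the members' values was not tested.

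The 3 defining genes had negative log2 fold changes in LC3b-/- mice, none of which passed the test. Csf1r, the receptor for CSF1 and IL-34, had 239, 208, 301 and 317 CPM in the WT libraries F1, F2, F3 and M1, respectively, and 93.7, 140 and 260 CPM in the LC3b-/- libraries F1, F3 and M. Values follow this order throughout. The groups overlapped through LC3b-/- M, and the log2 fold change was -0.69 ± 0.34 (SE; edgeR adjusted p = 0.262). Aif1, the gene for the actin-binding protein IBA1 by which macrophages are stained, had 5.41, 6.26, 1.2 and 4.54 CPM in WT and 3.58, 3.91 and 4.25 CPM in LC3b-/- libraries. The log2 fold change was -0.15 ± 0.50 (edgeR adjusted p = 0.878), and its sign turned under limma voom with sample weights (0.41). Cx3cr1, the fractalkine receptor of microglia, had 14.9, 10.2, 2.88 and 7.69 CPM in WT and 7.85, 7.55 and 7.27 CPM in LC3b-/- libraries. The LC3b-/- values lay inside the WT range, with a log2 fold change of -0.24 ± 0.47 (edgeR adjusted p = 0.784) that also turned sign under limma voom (0.27).

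Csf1r had a high level among the members and an order over libraries unlike that of leukocyte genes. Per kilobase of canonical transcript it was at 44.0 CPM in WT mice, the 4th of 37 after Gpnmb, Lyz2 and Cyba, and at 27.2 CPM in LC3b-/- mice, the 9th. In WT mice this compares with 1.27 for Aif1, 1.82 for Ptprc, which encodes the pan-leukocyte protein CD45, and 15.3 for Laptm5, a lysosomal protein of blood-derived cells. The value of Aif1 depends on the canonical transcript used, of 3425 bases. That transcript shares near-identical stretches of at most 243 bases with 160 other genes. From the lowest to the highest library, Csf1r ran LC3b-/- F1, LC3b-/- F3, WT F2, WT F1, LC3b-/- M, WT F3, WT M1, which is nearly the order of Rpe65, the visual cycle isomerase of the RPE (LC3b-/- F1, LC3b-/- F3, WT F2, LC3b-/- M, WT F1, WT F3, WT M1). Aif1, Cx3cr1, Ptprc, Laptm5 and Tyrobp, by contrast, were all lowest in WT F3.

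The ratio of Csf1r to Rlbp1, which encodes the retinaldehyde-binding protein of RPE and Muller glia, was 0.0995, 0.0795, 0.0844 and 0.0826 in WT and 0.0881, 0.0961 and 0.102 in LC3b-/- libraries, a spread of 1.28-fold from lowest to highest. The ratio of Csf1r to Laptm5 was 4.21, 4.30, 15.9 and 8.91 in WT and 1.76, 2.44 and 3.09 in LC3b-/- libraries, a spread of 9.03-fold. Of 35 members compared, 27 kept a steadier ratio (a smaller SD of the log2 ratio over the 7 libraries) to both Laptm5 and Ptprc than to either RPE gene. The reverse held for 3, namely Csf1r, P2ry12 and Sall1. The SD of the log2 ratio to Rlbp1 was 0.14 for Csf1r, 0.91 for P2ry12 and 1.63 for Sall1. Hexim1, which is not a macrophage marker, was among the 27. Its SDs were 0.59 and 0.63 to Laptm5 and Ptprc, and 0.81 and 0.80 to Rpe65 and Rlbp1. The count of 27 is therefore not particular to macrophage genes. These pairs were chosen after the values were seen, the 7 libraries share depth and composition, and no test was made. Csf1r shares a stretch of 1327 bases with Hmgxb3 on the other strand, and had 3.64 to 9.06 counts for each count of Hmgxb3. The kit marks strand, and the study does not state whether the counting used it.

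**Figure D2:**
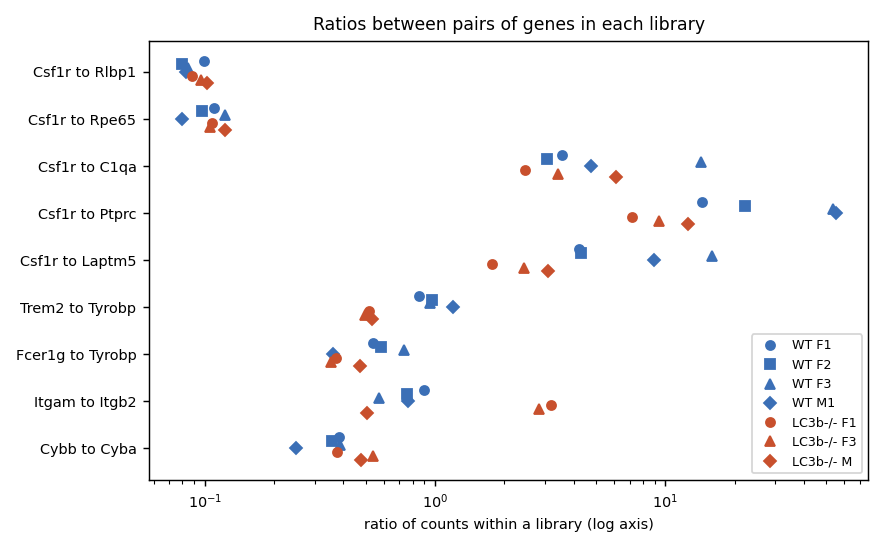
Each point is the ratio of the counts of a pair of genes in 1 library on a log axis; blue marks WT, red LC3b-/-. Csf1r to Rlbp1 spans 1.28-fold over the 7 libraries and Csf1r to Laptm5 9.03-fold, and Trem2 to Tyrobp lies at 0.856 to 1.2 in WT and at 0.497 to 0.533 in LC3b-/- libraries.

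The 12 genes of general macrophage identity were, but for Csf1r and Aif1, positive in LC3b-/- mice, with a median log2 fold change of 0.92. Of them, 5 were higher at an unadjusted p under 0.05 (against 13.5% of all genes). DESeq2 called 4 higher (against 6.49% of all genes), and edgeR called 0. Cd14, the co-receptor for bacterial lipopolysaccharide, had 46.9, 32.4, 19.3 and 24.9 CPM in WT and 74.0, 81.3 and 73.6 CPM in LC3b-/- libraries. All 3 LC3b-/- libraries lay above the highest WT library, and close to each other, with a log2 fold change of 1.30 ± 0.28 (edgeR adjusted p = 0.0906; DESeq2 adjusted p = 0.000948). Lyz2, lysozyme M, the most abundant of the 12 over the 7 libraries, had 274, 292, 200 and 197 CPM in WT and 330, 498 and 849 CPM in LC3b-/- libraries. The groups did not overlap and LC3b-/- M was highest, with a log2 fold change of 1.21 ± 0.32 (edgeR adjusted p = 0.104; DESeq2 adjusted p = 0.00694). The near-identical copy Lyz1 had 42 to 136 counts in a library, where Lyz2 had 5132 or more.

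Itgam and Itgb2 encode the alpha M (CD11b) and beta 2 (CD18) subunits of 1 integrin, the complement receptor CR3 of macrophages, monocytes and neutrophils. Itgam had 17.9, 9.57, 5.54 and 8.11 CPM in WT and 60.0, 74.1 and 19.3 CPM in LC3b-/- libraries, and Itgb2 20, 12.7, 9.70 and 10.6 CPM in WT and 18.8, 26.2 and 38.1 CPM in LC3b-/- libraries. Itgam shares 3454 bases with the overlapping gene Gm49368, which held 0 to 30 counts in a library. Itgam was highest in the LC3b-/- females and Itgb2 in the LC3b-/- male. These females share an unexplained number in their mouse names and the male has another, so sex and that number cannot be told apart here. The log2 fold changes were 2.31 ± 0.53 for Itgam (edgeR adjusted p = 0.0945; DESeq2 adjusted p = 0.000278) and 1.06 ± 0.32 for Itgb2 (edgeR adjusted p = 0.122; DESeq2 adjusted p = 0.0260). The ratio of Itgam to Itgb2 was 0.571 to 0.892 in the WT libraries, 3.19 and 2.83 in LC3b-/- F1 and F3, and 0.507 in LC3b-/- M. The 13 neutrophil genes summed to 73.2 and 216 CPM in LC3b-/- F1 and F3 and to 7.83 CPM in M, of which 60.6, 208 and 0.916 CPM were Ltf, lactoferrin, which glands also secrete. Of the others, S100a9 had 7.73, 2.31 and 0.354 CPM in these libraries and 0.599 to 2.20 CPM in WT, Csf3r had 2.38 to 3.61 CPM and 2.06 to 6.44 CPM in WT, and S100a8, Camp and Mmp9 had at most 1.99 CPM in any library. The remaining 7 (Ly6g, Mpo, Elane, Cxcr2, Ngp, Retnlg and Mmp8) were too low to be tested, with Mpo at 0 in every library. Their part in the Itgam values was not tested.

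Of the other general genes, Cd68, a lysosomal membrane protein, had an unadjusted p of 0.0164 and a log2 fold change of 1.03 ± 0.34, with the lowest LC3b-/- library (29.4 CPM) just above the highest WT library (29.3 CPM). Spi1 (PU.1) also did not overlap, at 2.02 to 6.71 CPM in WT and 7.13 to 9.57 CPM in LC3b-/- libraries, with a log2 fold change of 0.77 ± 0.41. Adgre1 (F4/80), Ptprc and Laptm5 overlapped, with log2 fold changes of 0.36, 0.80 and 0.70. Hpgds, the prostaglandin D synthase of macrophages and mast cells, had a log2 fold change of 1.18 ± 0.63 that rested on LC3b-/- F1 (24.7 CPM, against 6.07 and 8.92 CPM in the other LC3b-/- libraries): it was 0.36 without that library.

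**Figure D3:**
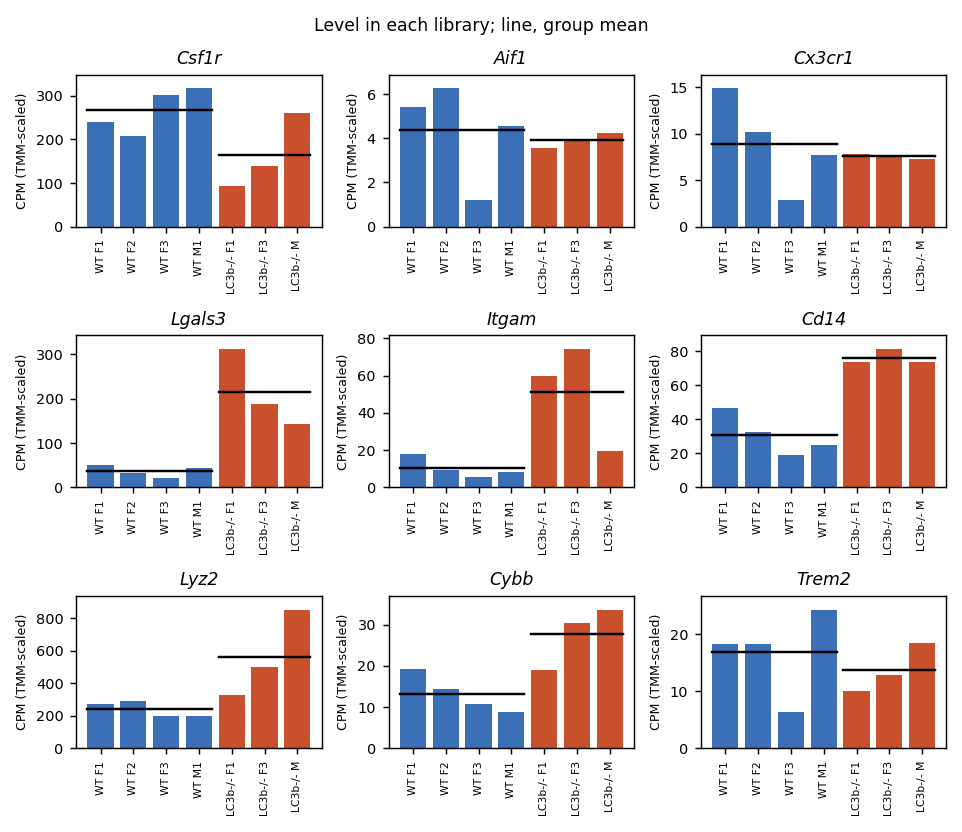
Bars give the TMM-scaled CPM of 9 members in each library from 0, with blue for WT and red for LC3b-/-; the black line is the mean of the group. For Lgals3, Itgam, Cd14 and Lyz2 the lowest red bar is above the highest blue one, and for Csf1r, Aif1, Cx3cr1, Cybb and Trem2 the bars of the groups overlap.

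The 5 genes typical of resident microglia all had negative log2 fold changes, with a median of -0.82, though those of Cx3cr1 and Tmem119 turned positive under limma voom. None was called by edgeR or DESeq2. The pattern leaned on WT F1: without it the median was -0.28, with 2 of the 5 positive. Under limma voom the median was -0.22. Without WT F3 the median was -1.07, with all 5 negative. In that setting 2 lay below in every LC3b-/- library (against 12.9% of all genes). With WT F3 and LC3b-/- F1 both left out the median was -0.84, with all 5 negative. There 3 lay below in every LC3b-/- library (against 16.3% of all genes). Sall1, a transcription factor of microglial identity, had 5.06, 2.36, 0.300 and 0.692 CPM in WT and 0.161, 0.702 and 0.236 CPM in LC3b-/- libraries. The groups overlapped, and LC3b-/- F1 held 4 counts. The log2 fold change was -2.48 ± 1.05 (unadjusted p = 0.0464 and adjusted p = 0.202 by edgeR). Tmem119, a microglial membrane protein, had 16.8, 11.8, 2.55 and 14.1 CPM in WT and 7.61, 8.75 and 12.6 CPM in LC3b-/- libraries. Its log2 fold change of -0.23 ± 0.55 (edgeR adjusted p = 0.831) turned sign under limma voom (0.40). P2ry12, the ADP receptor of microglial processes, and Siglech, a sialic acid-binding lectin, had log2 fold changes of -0.82 ± 0.57 and -1.07 ± 0.62; WT F1 was the highest of the 7 libraries for both (4.36 and 4.10 CPM). Without WT F1 the log2 fold changes were -0.28 for P2ry12, -0.31 for Siglech and -1.56 for Sall1, and without LC3b-/- F3 that of Sall1 was -3.39.

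Set against the general genes within each library, the microglial genes were lower in every LC3b-/- library than in any WT library. The mean log2 CPM of the 5 microglial genes minus that of the 12 general genes was -1.73, -2.48, -3.16 and -2.59 in WT and -4.11, -3.60 and -4.26 in LC3b-/- libraries. The group means were -2.49 ± 0.58 (SD, n = 4) and -3.99 ± 0.35 (SD, n = 3), and they differed by -1.50. Without Sall1 the means were -2.19 ± 0.48 and -3.39 ± 0.21, and the groups again did not overlap. Against the ITAM genes and against the NADPH oxidase genes the groups did not overlap either, but without Sall1 the margin was small. The nearest libraries, WT F3 and LC3b-/- F1, were then at -1.34 and -1.51 against the ITAM genes. Against the NADPH oxidase genes they were at -3.45 and -3.52. The difference is taken within a library. It was chosen after the values were seen, and no test was made of it.

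The 7 genes listed as ITAM adaptors and receptors had a median log2 fold change of 0.58, with 5 positive and 2 negative. Of these, 1 was higher at an unadjusted p under 0.05 (against 13.5% of all genes). With WT F3 and LC3b-/- F1 both left out, 3 of the 7 were (against 5.89%). Clec7a (Dectin-1), the receptor for fungal beta-glucans, had the smallest p of them: it had 12.2, 10.1, 5.58 and 8.53 CPM in WT and 10.8, 18.4 and 24.9 CPM in LC3b-/- libraries. The groups overlapped through LC3b-/- F1 (log2 fold change 0.99 ± 0.34, edgeR adjusted p = 0.151). Tyrobp (DAP12), the adaptor most abundant here, had 21.3, 18.9, 6.70 and 20.1 CPM in WT and 19.6, 25.9 and 34.5 CPM in LC3b-/- libraries (0.67 ± 0.39 on the log2 scale). The other adaptor, Fcer1g, had a log2 fold change of 0.33, and the Fc receptors Fcgr3, Fcgr2b and Fcgr1 had 0.58, 0.84 and -0.03. Fcgr2b, though on this list, is an inhibitory receptor that does not signal through the ITAM adaptors. Fcgr3 and Fcgr2b share a stretch of 512 bases at 96.3% identity, so reads may be split between them.

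Trem2, the lipid-sensing receptor that signals through TYROBP, had 18.3, 18.3, 6.37 and 24.2 CPM in WT and 10.1, 12.9 and 18.4 CPM in LC3b-/- libraries, with a log2 fold change of -0.28 ± 0.43 (edgeR adjusted p = 0.717). Alone it did not separate the genotypes, but its ratio to Tyrobp did: 0.856, 0.967, 0.950 and 1.2 in WT and 0.519, 0.497 and 0.533 in LC3b-/- libraries. WT F3, low for both genes, had a ratio like the other WT libraries. The ratio of Fcer1g to Tyrobp overlapped between the genotypes (0.362 to 0.732 in WT and 0.354 to 0.470 in LC3b-/- libraries). The pair was chosen after the values were seen, and no test was made.

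Cybb and Cyba encode the 2 membrane subunits of the phagocyte NADPH oxidase, gp91phox and p22phox. Cybb had 19.3, 14.4, 10.7 and 8.73 CPM in WT and 19.0, 30.3 and 33.5 CPM in LC3b-/- libraries. LC3b-/- F1 lay just below the highest WT library and the other LC3b-/- libraries above it, and the log2 fold change was 1.06 ± 0.31 (edgeR adjusted p = 0.116; DESeq2 adjusted p = 0.0209). Cyba, which many cell types express, had 50.4, 40.4, 27.8 and 35.2 CPM in WT and 50.7, 56.6 and 70.1 CPM in LC3b-/- libraries (log2 fold change 0.62 ± 0.21, edgeR adjusted p = 0.149). Its groups did not overlap, by a small margin. Of 6 genes for the cytosolic subunits, their GTPases and the regulator Rubicon, edgeR called 0 and DESeq2 1 higher (against 6.49% of all genes). That gene, Ncf4 (p40phox), had 1.11 to 2.17 CPM in WT and 3.46 to 5.29 CPM in LC3b-/- libraries (log2 fold change 1.54 ± 0.34, edgeR adjusted p = 0.0906). Rac1, the most abundant of the 6, had a log2 fold change of 0.06.

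**Figure D4:**
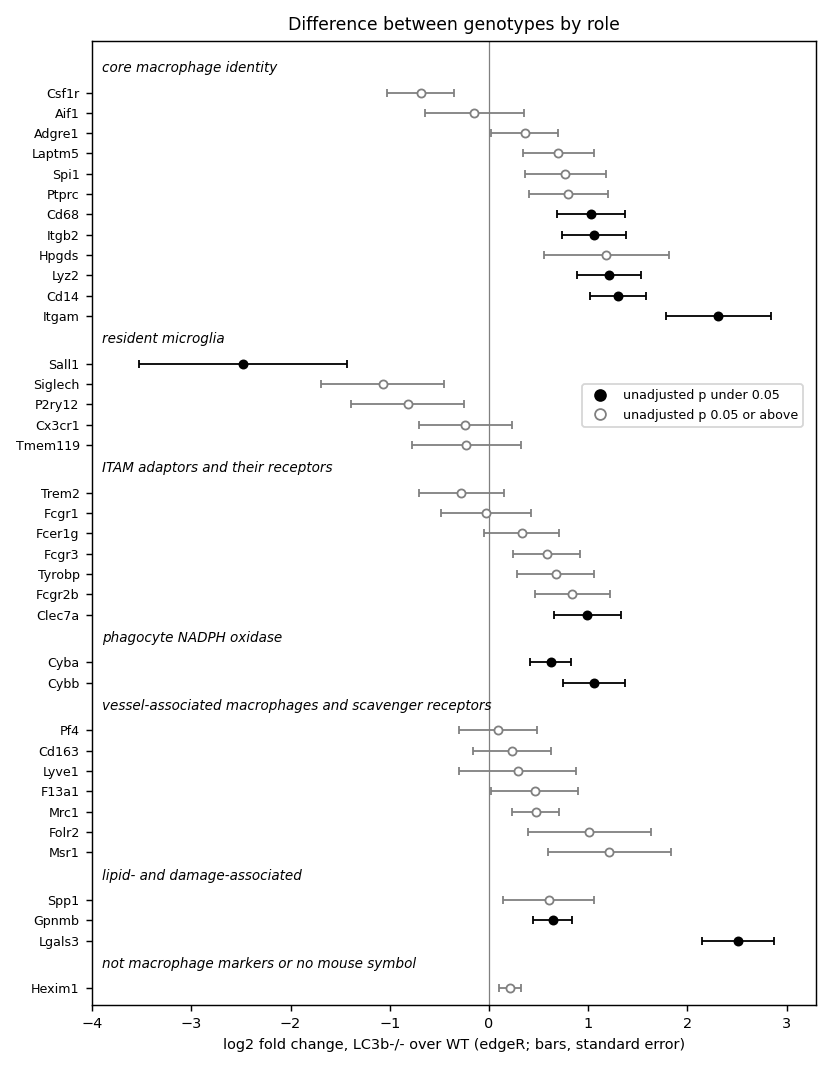
Points are log2 fold changes (LC3b-/- over WT) and bars their standard errors from edgeR, grouped by role; filled points have an unadjusted p under 0.05. All 5 resident microglia genes lie left of 0 (Cx3cr1 and Tmem119 turned sign under limma voom), 10 of 12 general macrophage genes lie right of it, and no point passed the adjusted threshold.

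Of the vessel-associated macrophage genes and scavenger receptors, the 7 tested had low levels and positive log2 fold changes (median 0.46), and none had an unadjusted p under 0.05. Mrc1, the mannose receptor, had both the highest level and the smallest p of the 7, at 5.33, 3.65, 3.86 and 5.19 CPM in WT and 6.77, 4.99 and 6.97 CPM in LC3b-/- libraries (log2 fold change 0.47 ± 0.24, edgeR adjusted p = 0.269). The log2 fold changes of Cd163 (a haemoglobin scavenger receptor), Lyve1 (a hyaluronan receptor, also of lymphatic endothelium), F13a1 (coagulation factor XIII A), Pf4 (platelet factor 4), Folr2 (folate receptor beta) and Msr1 (scavenger receptor A) ran from 0.09 for Pf4 to 1.21 for Msr1. With WT F3 and LC3b-/- F1 both left out, 4 of the 7 were positive and 3 negative, with a median of 0.08. The highest mean level among these 6 was 5.08 CPM, that of F13a1 in LC3b-/- mice.

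The genes of lipid-laden and damage-associated macrophages held the member nearest to a call. Lgals3, galectin-3, a sugar-binding protein that epithelia make as well, had 51.6, 33.4, 21.9 and 43.1 CPM in WT and 311, 188 and 143 CPM in LC3b-/- libraries. Every LC3b-/- library was above every WT library, and the means were 37.5 ± 12.8 CPM (SD, n = 4) and 214 ± 86.9 CPM (SD, n = 3). The log2 fold change was 2.51 ± 0.36, or 5.71-fold (edgeR adjusted p = 0.0531; DESeq2 adjusted p = 4.44e-09), and 9 of 17 alternatives called it. Within the LC3b-/- group Lgals3 ran in the order of the ocular surface epithelium list (22302, 6392 and 3446 CPM), and with WT F3 and LC3b-/- F1 left out its log2 fold change was 1.94 (edgeR adjusted p = 0.163). The part of that epithelium in the Lgals3 values was not tested.

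Gpnmb, a lysosomal glycoprotein of lipid-laden macrophages and of pigment cells, was the most abundant member per kilobase in both genotypes (144 and 224 CPM per kilobase). It had 717, 447, 551 and 490 CPM in WT and 752, 897 and 919 CPM in LC3b-/- libraries. The groups did not overlap, but WT F1 came close to LC3b-/- F1, and the log2 fold change was 0.64 ± 0.20 (edgeR adjusted p = 0.130; DESeq2 adjusted p = 0.0258). Spp1, osteopontin, had a log2 fold change of 0.60 ± 0.46 with overlapping groups. Hexim1, the listed gene that is no macrophage marker, had 60.7, 48.1, 50.2 and 51.9 CPM in WT and 65.2, 58.8 and 59.5 CPM in LC3b-/- libraries, a log2 fold change of 0.21 ± 0.11.

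Further genes of the same pathways were read as whole lists, and none of the lists below held an edgeR call. Of 30 other macrophage and microglia genes, 22 were positive and 8 negative, with a median log2 fold change of 0.57. At an unadjusted p under 0.05, 10 were higher (against 13.5% of all genes) and 1 lower (against 10.6%). With WT F3 and LC3b-/- F1 both left out, 6 were higher (against 5.89%) and 4 lower (against 4.03%). Arhgdib, a GTPase regulator of leukocytes, had the smallest p (log2 fold change 1.77 ± 0.48, edgeR adjusted p = 0.105), and Ctss, cathepsin S, was the most abundant (0.99 ± 0.35, edgeR adjusted p = 0.157). DESeq2 called 3 of the 30 higher (Mpeg1, Arhgdib and Runx1, against 6.49% of all genes) and 1 lower (against 2.92%). The 1 called lower is again a microglial gene, the purinergic receptor P2ry13. It had 0.262 to 3.63 CPM in WT and 0.236 to 0.644 CPM in LC3b-/- libraries (-2.36 ± 0.84, edgeR adjusted p = 0.157). P2ry13 is named for its DESeq2 call after its value was seen.

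Of 8 genes for the ligands of CSF1R and CX3CR1 and the TGF-beta input to microglia, 7 were positive with a median log2 fold change of 0.59. The TGF-beta receptor Tgfbr1 had the smallest p (0.56 ± 0.14, edgeR adjusted p = 0.0990), and Tgfbr2 was the most abundant (0.74 ± 0.30, edgeR adjusted p = 0.191). Il34 and Tgfb1 were the 2 that DESeq2 called higher (against 6.49% of all genes). Of 15 genes of the kinase chain below the ITAM adaptors, 14 were positive with a median of 0.68. At an unadjusted p under 0.05, 5 were higher (against 13.5% of all genes). All 5 were called higher by DESeq2 (against 6.49%). Syk, the kinase that docks on the motifs, had 12.1, 7.79, 6.07 and 8.27 CPM in WT and 30.1, 19.7 and 22.2 CPM in LC3b-/- libraries (1.48 ± 0.26, edgeR adjusted p = 0.0834; DESeq2 adjusted p = 5.24e-05). Src, the most abundant of the 15, was the 1 negative gene (-0.29 ± 0.20).

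The genes of some other cell types were also mostly positive. The summed levels of several lists overlapped between the genotypes, as the plot of the marker lists shows. Of 7 monocyte genes, 6 were positive with a median log2 fold change of 0.94. Their summed level overlapped, at 71.6 to 207 CPM in WT and 178 to 294 CPM in LC3b-/- libraries. Plac8 had the smallest p (1.98 ± 0.39, edgeR adjusted p = 0.0898) and Fn1, which fibroblasts also make, was the most abundant (0.94 ± 0.43). Of 9 dendritic cell genes, 7 were tested and all 7 were positive (median 1.43), with Batf3 at 1.74 ± 0.45 and the most abundant, the integrin subunit Itgax, at 1.85 ± 0.48. The 8 mast cell genes summed to 16.7 to 40.2 CPM in WT and 53.6 to 175 CPM in LC3b-/- libraries, with Cma1 (mast cell chymase) at 2.84 ± 0.55 and Kit at 1.45 ± 0.46. Of 8 T cell genes, 7 were positive with a median of 0.45 (Cd4 1.31 ± 0.60, Lck 0.45 ± 0.56). Their summed level overlapped, at 2.66 to 14.8 CPM in WT and 8.70 to 16.5 CPM in LC3b-/- libraries. The B cell list overlapped too (3.78 to 50.5 and 3.13 to 28.3 CPM), with Cd79a at 0.65 ± 0.84 and Ighm at -0.56 ± 1.04. Of its 5 genes tested, 4 were negative, with a median of -0.09. The neutrophil list already described, whose Ltf was at 7.19 ± 1.52, also overlapped.

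Among the cells of the eyecup, 13 of 14 RPE genes were negative with a median log2 fold change of -0.80 (Lrat -1.58 ± 0.42, Ttr -0.73 ± 0.36), and all 9 ocular surface epithelium genes lay higher in every LC3b-/- library with a median of 4.70 (Krt13 5.56 ± 1.25, Krt5 3.23 ± 1.42). The 8 endothelial genes had a median of 0.92 and 6 of them did not overlap (Pecam1 1.06 ± 0.35, Flt1 0.84 ± 0.40). The 8 fibroblast and pericyte genes had a median of 0.70 (Col1a1 0.96 ± 0.51, Dcn 0.77 ± 0.48), and the 5 lymphatic endothelial genes 0.61, with Pdpn, both the most abundant and of the smallest p, at -0.59 ± 0.18. The photoreceptor genes ranged from 93.8 to 19932 summed CPM over the libraries (Rom1 -1.39 ± 0.73), while the Muller glia genes had 2393 to 3154 CPM (Glul -0.03 ± 0.17, Vim 0.84 ± 0.33) and the erythrocyte genes 182 to 662 CPM (Hba-a1 0.01 ± 0.50, Alas2 0.44 ± 0.46). How far these differences in the makeup of the sheets enter the values of the macrophage genes was not tested.

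**Figure D5:**
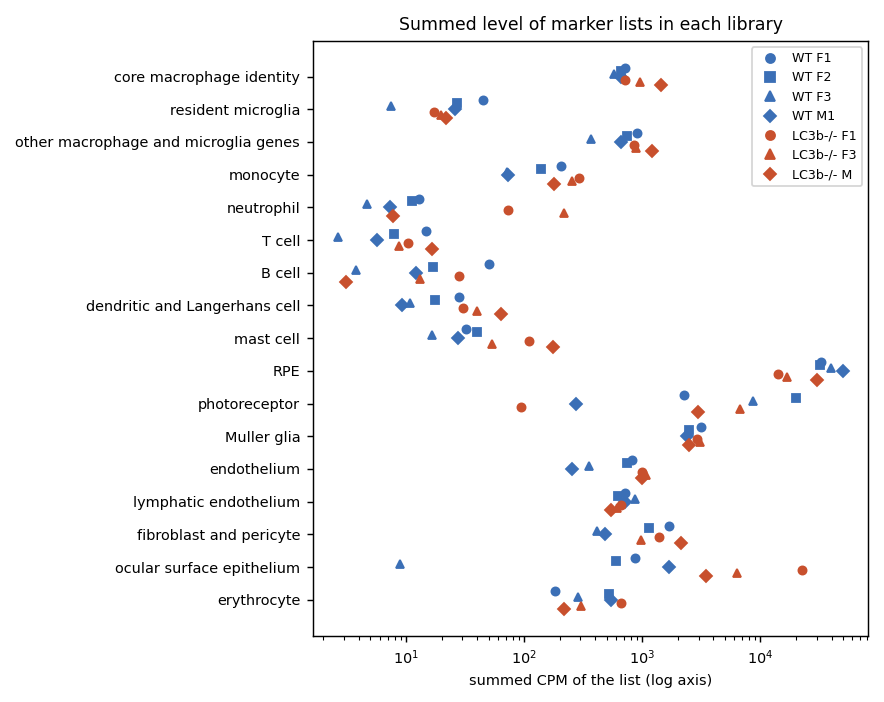
Each point is the summed CPM of the genes of 1 marker list in 1 library on a log axis; blue marks WT, red LC3b-/-. The ocular surface epithelium list runs from 8.84 CPM in WT F3 to 22302 CPM in LC3b-/- F1, while the resident microglia list runs from 7.41 to 45.2 CPM.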

How the data were processed

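RNA from the RPE of each mouse was read on a NovaSeq sequencer as single reads. Per the study's methods, the authors counted reads against GENCODE vM26 transcripts (GRCm39) with Salmon and summed them per gene by tximeta. The deposited values are expected counts (estimated counts) that the authors rounded to whole numbers, without scaling. Salmon's strand setting is not given in the sources used here. Identifiers were matched to symbols in GENCODE vM39 (51721 of 52740; unmatched ones hold at most 0.0436% of the counts of a library). Libraries held 24495952 to 35616134 counts, which sets the counting precision; limits for 0 counts cover counting error only.

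Genes were filtered with filterByExpr, scaled by TMM (trimmed mean of M values) and tested with edgeR 4.0.16 (quasi-likelihood, no covariates, 16990 genes, R 4.3.3), with Benjamini-Hochberg adjustment over all of them. Alternatives were DESeq2 1.42.0, limma 3.58.1 voom with sample weights, other scalings and filters, sex as a covariate, females only, the replicate name as a block, and each library left out. The methods were tested on simulated data, drawn from edgeR's own estimates of level and spread. In these DESeq2 made more false calls than edgeR or limma voom and also recovered more of the true changes. Upstream sequences were read from GRCm39, and near-identical transcripts were found with BLAST+ 2.17.0.

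Groups come from the genotype labels. The members and lists were chosen with earlier results of these data known. Every member is named, with values per library for Csf1r, Aif1, Cx3cr1, members called by edgeR or DESeq2, and in each role the member with the smallest p and the most abundant one; other lists are given by their counts and by the same pair of genes. 1 photoreceptor gene and 1 upstream sequence are not reported here. The mouse names also carry a number that the labels do not explain. All WT mice share one, LC3b-/- F1 and F3 share another, and LC3b-/- M has its own. Beyond that, the labels say only that the replicates are separate mice.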

Additional observations from a re-analysis of the deposited data

Results flagged for a closer look

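In the 4 WT libraries, the log2 CPM of each of the 37 members tested was examined for a library far from the others, by the gap to its nearest neighbour over the whole range (limit 0.829); chance flags about 1 group in 20. For 3 genes the limit was passed, and WT F3 was the low library in each. Tyrobp was at 2.76 against 4.24 in the next library (gap ratio 0.895). Fcgr1 was at -0.23 against 1.29 (gap ratio 0.837), and Spp1 was at 3.91 against 5.56 (gap ratio 0.915).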

How the results depend on the processing

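No member was called lower under any alternative, and the median log2 fold change of the members stayed between 0.32 and 0.78. The count called higher was 0 by edgeR, 7 by DESeq2 and 1 with DESeq2 size factors, 1 with scaling by totals, 1 under limma voom, 1 with unfiltered genes, 1 where all libraries had to hold 10 counts, and 1 with sex in the model; the 1 was Lgals3 each time. It was 0 to 2 with a library left out: 2 without WT F1 (Lgals3 and Cd14) and 2 without LC3b-/- M (Lgals3 and Itgam). It was 0 in females only. The all-gene calls moved as much, from 21 higher and 19 lower to 1248 and 562 by DESeq2, 80 and 44 by limma voom, 33 and 25 with DESeq2 size factors, 70 and 127 with sex, 74 and 22 in females, 48 and 30 with no filter, 183 and 32 without WT F1 and 339 and 146 without LC3b-/- M. The other libraries, left out in turn, gave 6 to 11 higher and 5 to 9 lower. The cause was not tested. The members that lay above in every LC3b-/- library, 8 of 37, were 8 to 15 with a library left out, with 15 both without WT F1 (20.9% of all genes) and without LC3b-/- F1 (14.2%), and 16 with WT F3 and LC3b-/- F1 both left out. Those that lay below, 0 of 37, were 5 without WT F3 (13.5%, against 12.9% of all genes) and 6 with both left out, where edgeR called 0 higher and 1 lower over all genes.

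The names F1 and F3 occur in both genotypes, and samples of 1 name correlated at 0.146 and 0.243 in their deviations from the group means. With 2 shared names, and no label that ties them, they do not pair the mice. With the replicate block, 6 members had an unadjusted p under 0.05 and higher (10 without it). The share of all genes that did was 9.48% with the block and 13.5% without it. With the block edgeR called 0 of all genes in either direction. The log2 fold changes of Aif1, Cx3cr1, Tmem119, Trem2 and Fcgr1 turned positive, at 0.53, 0.21, 0.29, 0.08 and 0.54.

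Other reversals were of members with adjusted p over 0.5. Under limma voom the log2 fold changes were 0.41 for Aif1, 0.27 for Cx3cr1, 0.40 for Tmem119, 0.09 for Trem2, 0.43 for Fcgr1 and -0.13 for Pf4. Fcgr1 was also 0.03 with scaling by totals and 0.01 in females, where Fcer1g was -0.15. With WT F3 and LC3b-/- F1 both left out, Cd163, F13a1 and Pf4 were at -0.07, -0.03 and -0.40. With 1 library left out, the ranges were -0.48 to 0.07 for Aif1, -0.54 to 0.13 for Cx3cr1, -0.58 to 0.03 for Tmem119, -0.08 to 0.55 for Fcer1g, -0.32 to 0.14 for Fcgr1, -0.01 to 0.54 for Cd163, -0.22 to 0.71 for Lyve1 and -0.23 to 0.36 for Pf4. In all, 582 of the values of single members kept direction and side of the threshold, 17 passed it and 29 reversed. Low counts limit Sall1, Siglech, P2ry12 and Msr1, which had 4 to 20 counts in their lowest libraries.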
